A study of Mus musculus with 5 samples.

Results

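Divergent coding promoters are stretches of DNA from which 2 protein-coding genes are transcribed in opposite directions, with their start sites back to back. Such pairs were taken from the GENCODE vM21 annotation of mm10 on the 19 autosomes, where the most upstream start sites of the 2 genes lay at most 1000 bp apart. There were 734 pairs, formed by 1448 of 20807 autosomal coding genes, and the gap between the start sites ranged from 1 to 987 bp with a median of 128 bp. A Smarca4 peak was a member if it came within 1000 bp of either start site and held fewer than 20 reads in the input library. This gave 223 member peaks among 78025 autosomal peaks passing the same input limit, out of 78911 peaks in all. The members lay at 176 pairs, which is 24.0% of pairs (95% Clopper-Pearson interval 20.9 to 27.2%), beside 3516 of 19359 single coding promoters, those in no divergent pair (18.2%, 17.6 to 18.7%). No peak near a pair was lost to the input limit. Genes in neighbouring or overlapping models can belong to several pairs, so 20 genes occurred in more than 1 pair and 3 peaks were members at 2 pairs.

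A divergent promoter holds a pair of core promoters that fire away from each other and often share the nucleosome-depleted DNA between them. In mammals most are CpG islands without a TATA box, and the genes they serve are often housekeeping genes for DNA repair, the cell cycle, mitochondria and RNA processing. Smarca4 is an ATPase motor of the BAF complex, which slides and evicts nucleosomes at promoters and enhancers, and Smarcc1 is a scaffold subunit of that complex.

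The libraries came from bulk chromatin of mouse embryonic stem cells (mESCs) of C57/Bl6 strain, 1 female (XX) and 1 male (XY) set. Per the study's methods they were Xmas mESCs, whose X-linked Hprt gene carries a fluorescent reporter, taken at day 4 of differentiation after withdrawal of 2i medium. Both sexes carried either a non-targeting hairpin (Nons) or a hairpin against Smarcc1, and a sheared chromatin library without immunoprecipitation served as input. Each sex was thus sampled with and without knockdown, and each of the 4 groups had 1 ChIP library and 1 peak list. Where 4 read counts are given in library order, they are those of the female pair and then the male pair of libraries, Nons before knockdown. The level of Smarcc1 is not measured by these files, and 1 hairpin stands for the knockdown.

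Depth differed between the libraries. Values in the lists rose in whole steps, so reads could be counted and relative depth set: it was 11.6% of the input in female Nons and 5.99% after knockdown, and 21.8% in male Nons and 14.2% after knockdown. Peaks rested on medians of 5 to 9 reads. Intervals below are 95% intervals for counting error only, and with 1 library per group they compare libraries and not conditions. A scaled read is a read multiplied by the step of its library, 4.59 to 16.7 scaled reads, so that libraries can be set side by side.

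The DNA between the start sites is shown for pairs that were called in 3 lists, that had overlapping peaks in both Nons lists or that are well known, with a gap of 30 to 300 bp, to let the shared stretch be read beside the peaks that flank it. Sequences are from GRCm38.p6 (mm10), plus strand, with the base after the start of the left gene first and the base before the start of the right gene last. Capitals mark matches on either strand to the CCAAT box, the GC box GGGCGG, the ETS motif CCGGAAG, the NRF1 motif GCGCATGC, the YY1 motif AAGATGGC, the cyclic AMP response element TGACGTCA, the E box CACGTG, the palindrome TCGCGAGA or the TATA box motif TATAAA, so that ATTGG marks a CCAAT box of the minus strand.
Atp5h/Kctd2, chr11:115419963-115420127, peaks in both Nons lists: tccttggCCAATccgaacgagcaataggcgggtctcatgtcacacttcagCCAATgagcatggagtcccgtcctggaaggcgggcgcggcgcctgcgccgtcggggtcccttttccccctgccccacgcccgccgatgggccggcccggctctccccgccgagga
Slc25a29/Slc25a47, chr12:108835884-108836045, peaks in both Nons lists: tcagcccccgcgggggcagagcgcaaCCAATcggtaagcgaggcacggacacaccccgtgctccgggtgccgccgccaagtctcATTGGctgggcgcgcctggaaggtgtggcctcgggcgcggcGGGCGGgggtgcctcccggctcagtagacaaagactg
Ccs/Ccdc87, chr19:4839333-4839365, peaks in both Nons lists and in male knockdown: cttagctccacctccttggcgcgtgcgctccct
Brca1/Nbr1, chr11:101551956-101552148, no peak in any list: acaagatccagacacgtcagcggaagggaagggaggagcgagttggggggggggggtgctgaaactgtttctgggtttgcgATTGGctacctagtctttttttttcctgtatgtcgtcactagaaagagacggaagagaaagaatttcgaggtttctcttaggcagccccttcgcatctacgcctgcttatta
A CCAAT match stood in 3 of these 4 stretches, whether or not the pair held a peak, and the gap of Ccs/Ccdc87 matched none of the motifs. No stretch held a TATAAA match. Their GC content ran from 50.3% at Brca1/Nbr1 to 71.6% at Slc25a29/Slc25a47.

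Over all pairs these motifs differed between pairs with and without a peak by less than counting error. In the 300 bp around the middle of the pair, CCAAT was found on either strand at 81 of 176 pairs with a peak (46.0%, 38.5 to 53.7%) and at 246 of 558 without (44.1%, 39.9 to 48.3%). It was present in 35.7% of 19359 single coding promoters, in the 300 bp around their start sites. The ETS motif CCGGAAG stood at 26.1% of pairs with a peak, 29.0% without and 10.6% of single promoters. The GC box GGGCGG stood at 70.5%, 67% and 44.7% in the same order. The motif of Yin Yang 1, AAGATGGC, stood at 8.52%, 8.24% and 3.23%, and TCGCGAGA at 5.11%, 5.02% and 1.09%. The NRF1 motif stood at 6.68% of all pairs and 3.07% of single promoters, the cyclic AMP response element at 4.50% and 2.16% and the E box at 10.9% and 7.21%. For these 8 motifs the interval of all pairs lay above that of all single promoters. TATAAA was rarer in pairs, at 4.50% (3.11 to 6.26%) of all pairs and 11.2% (10.8 to 11.7%) of single promoters. Pairs had a median GC content of 62.7% and a median CpG observed over expected of 0.851, against 57.7% and 0.562 at single promoters. Pairs with a peak had a median GC content of 63.0% and a CpG ratio of 0.843, beside 62.3% and 0.855 at pairs without one.

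Male Nons had the most divergent pairs with a peak. They were 120 of 734 (16.3%, 13.7 to 19.2%), against 11.6% (11.2 to 12.1%) of single coding promoters in the same list and a background of 11.8% of all 20093 autosomal coding promoters. Male knockdown had a peak at 53 pairs (7.22%, 5.46 to 9.34%), against 5.14% (4.83 to 5.46%) of single promoters and a background of 5.22%. In both male lists the interval of the pairs thus began at or above the end of the interval of single promoters. Female Nons had a peak at 34 pairs (4.63%, 3.23 to 6.41%), against 3.99% of single promoters and a background of 4.01%. Female knockdown had 2 pairs (0.272%, 0.0330 to 0.981%), against 0.651% of single promoters and a background of 0.637%. In the female lists the share of pairs was within counting error of the background.

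**Figure D1:**
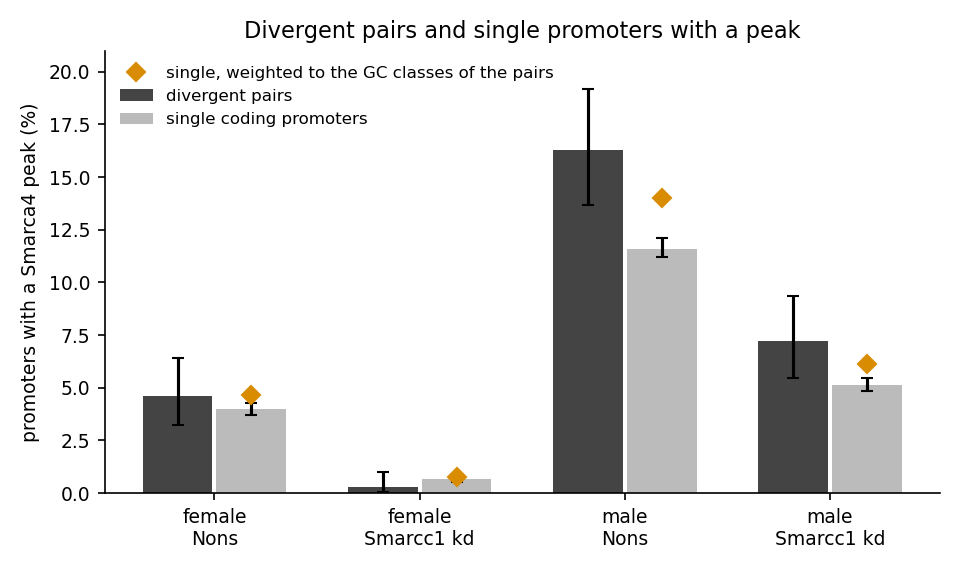
Share of promoters with a Smarca4 peak (%, y axis) by library (x axis, 1 library per bar), for 734 divergent pairs and 19359 single coding promoters. Error bars are 95% Clopper-Pearson intervals and diamonds give the single promoters weighted to the GC classes of the pairs. In male Nons the pairs stand at 16.3%, the single promoters at 11.6% and the diamond at 14.0%.

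The excess in the male lists was smaller once base composition was matched. Weighted to the GC classes of the pairs, single promoters had a peak at 14.0% in male Nons and 6.13% in male knockdown, which lies inside the interval of the pairs in both lists. At 60 to 70% GC, the class with most pairs, 15.5% of 322 pairs and 16% of 5301 single promoters had a male Nons peak. At under 50% GC the figures were 10.4% of 67 pairs (4.30 to 20.3%) and 2.34% of 5216 single promoters (1.95 to 2.79%), and this was the class where the intervals were apart. Weighting by classes of CpG observed over expected gave 13.3% in male Nons, below the interval of the pairs, and 5.78% in male knockdown, inside it. In female Nons the GC-weighted share of single promoters was 4.67%, beside 4.63% of pairs. These weightings were added after the data had been seen. The window around a pair is also wider than that around 1 start site: counted within 1000 bp of the middle only, 15.5% of pairs had a male Nons peak and 6.95% a male knockdown peak.

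**Figure D2:**
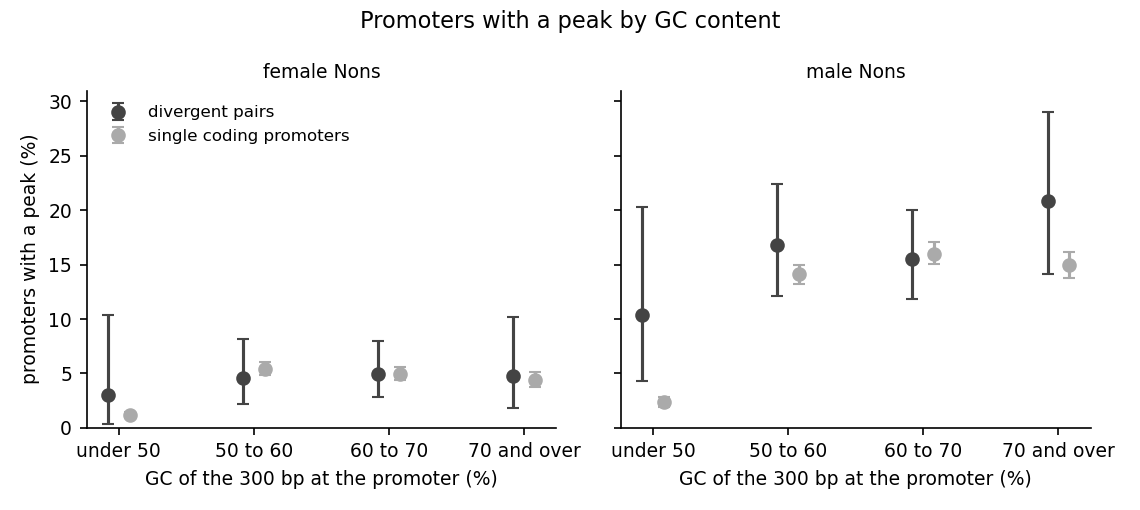
Share of promoters with a peak (%, y axis) by GC content of the 300 bp at the promoter (%, x axis) in female Nons and male Nons, for divergent pairs and single coding promoters, with 95% Clopper-Pearson intervals. In male Nons 15.5% of pairs and 16% of single promoters at 60 to 70% GC had a peak, and 10.4% and 2.34% at under 50% GC.

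Wider gaps, which also widen the window for peaks, went with more peaks in male Nons, within counting error. A peak was called there at 13.4% (9.79 to 17.7%) of 306 pairs with gaps up to 100 bp, 16.9% (12.8 to 21.7%) of 296 pairs with gaps of 101 to 300 bp and 22.0% (15.2 to 30%) of 132 pairs with wider gaps. Female Nons had 5.23%, 3.04% and 6.82% in the same classes, with no order. No equal window was counted by gap class, so the part set by the window is not known. By chromosome, pairs with a peak in any list ran from 3 of 37 on chromosome 13 to 9 of 23 on chromosome 19.

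Most peak centres lay on the flanks of the shared stretch, which is also most of the window. Of 134 combinations of a male Nons peak and a pair, 6 had the centre of the peak between the start sites (4.48%, 1.66 to 9.49%), where 7.83% would lie if centres were spread evenly over the window. None of 35 did so in female Nons, where the interval reached 10%, and 1 of 55 did in male knockdown. Counting whole peaks, 18.7% of male Nons members (12.5 to 26.3%), 11.4% of female Nons members (3.20 to 26.7%) and 9.09% of male knockdown members (3.02 to 20%) touched the gap, against 24.2 to 24.5% expected by length. Of these intervals, only that of male knockdown ended below the share by length. Centres outside the gap lay a median of 446 bp from the nearer start site in male Nons, 527 bp in female Nons and 574 bp in male knockdown, downstream of it in the direction of transcription. In male knockdown 36 lay on the side of the minus-strand gene and 18 on the side of the plus-strand gene, where male Nons had 61 and 67.

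Some pairs had a peak on each flank. In male Nons 14 of 120 pairs with a peak had several, and at 9 of them the peaks lay on opposite sides of the gap. Dido1/Gid8 was one and held 8 male Nons reads on either side; Gid8 is a subunit of the CTLH ubiquitin ligase. Obsl1/Inha was the pair with 2 female Nons peaks, and Pfdn6/Wdr46 and Rom1/Eml3 had peaks on both flanks in male knockdown.

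In the male libraries peak centres gathered at the pairs, and in female Nons they did not. Of male Nons peaks centred within 5000 bp of the middle of a pair, 111 of 354 lay within 1000 bp (31.4%, 26.6 to 36.5%), which is 20% of that length. Male knockdown gave 45 of 143 (31.5%, 24.0 to 39.8%). Female Nons gave 26 of 162 (16%, 10.8 to 22.6%), so its interval held the share by length and ended below that of both male libraries. Female knockdown had 1 of 18. Around single start sites the shares were 27.8% and 26.7% in the male libraries and 20% and 24.1% in the female libraries, Nons before knockdown. Thinned to the depth of the shallowest library, an alternative added after the data had been seen, the shares at pairs were 32.5% in male Nons, 36.8% in male knockdown and 16.1% in female Nons. Thinning weighted peaks already called at full depth and called none anew, so it does not show what a shallower male library would give. The thinned shares rest on 55.6, 43.0 and 70.1 expected peaks in that order and have no interval. Sex and library cannot be told apart with 1 library each.

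**Figure D3:**
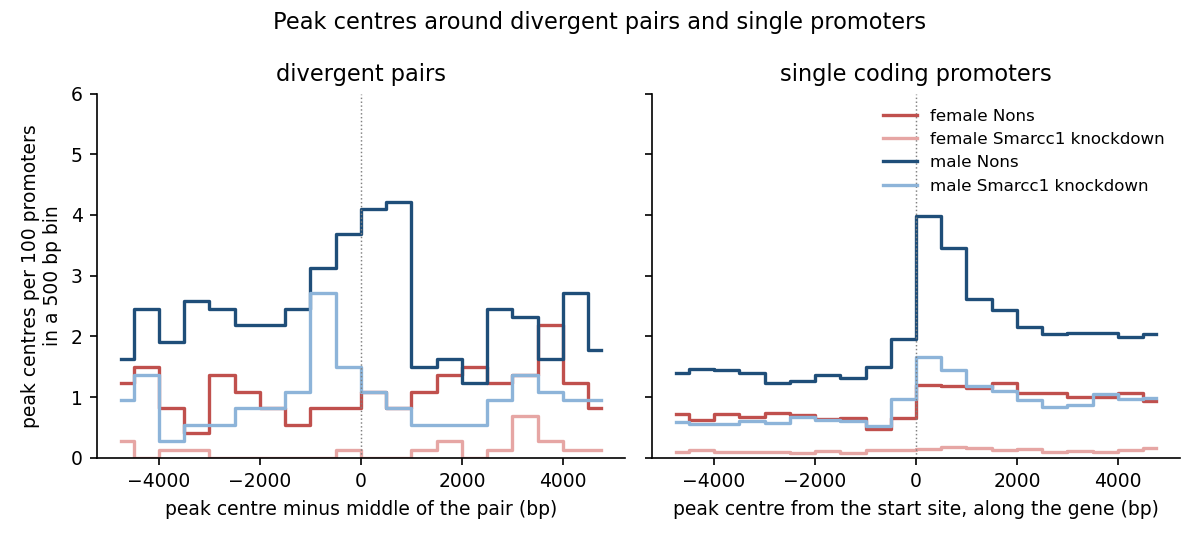
Number of peak centres per 100 promoters in 500 bp bins (y axis) by distance from the middle of the pair or, for single promoters, from the start site along the gene (bp, x axis), 1 line per library. Around pairs the male Nons line is highest in the 4 bins within 1000 bp of the middle, at 3.13 to 4.22 per 100 pairs, and the female Nons line has no rise there, at 0.817 to 1.09.

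Reads were low in all members. Female Nons members held 6 to 15 reads in their own library (median 8), male Nons members 5 to 22 (median 10.5) and male knockdown members 7 to 21 (median 9). Their input reads had a median of 4, 4.50 and 4, close to the 4 of single promoter peaks in each of these lists. The 132 male Nons members held a median of 3 reads in female Nons, with 16 at 0 reads, and a median of 0 reads in female knockdown. The 34 female Nons members held a median of 5.50 reads in male Nons, and none was at 0 there. Widths were 300 to 1050 bp.

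Most pairs with a peak had it in 1 list. Of the 176, 145 pairs were called in 1 list, 29 in 2, 2 in 3 and none in all 4. This split was not counted at single promoters. Of female Nons members, 8 of 34 overlapped a peak of another list (23.5%, 10.7 to 41.2%), against 19.1% of all autosomal peaks of that list. It was 22 of 132 in male Nons (16.7%, 10.7 to 24.1%), against 14.0%. Male knockdown had 16 of 55 (29.1%, 17.6 to 42.9%), against 20%, and female knockdown had 1 of 2, against 17.9%. Each background lay inside the interval of the members.

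Pfdn6/Wdr46 and Ccs/Ccdc87 were the pairs called in 3 lists. Pfdn6 encodes a prefoldin subunit, a chaperone of newly made actin and tubulin, and Wdr46 a nucleolar protein needed for ribosome assembly. Their start sites on chromosome 17 are 317 bp apart. The region chr17:33940951-33941400, on the Wdr46 side, held 8, 1, 8 and 7 reads in library order and 4 in the input, and was called in female Nons. On the Pfdn6 side, chr17:33939601-33940200 held 2, 1, 9 and 14 reads in library order and 6 in the input, and was called in male knockdown. These regions were chosen by the libraries they were called in, and on the Pfdn6 flank both female libraries held 1 or 2 reads. Ccs encodes the copper chaperone that loads superoxide dismutase 1, and Ccdc87 a coiled-coil protein. Downstream of the Ccdc87 start site, chr19:4839601-4840050 held 2, 0, 10 and 11 reads in library order and 2 in the input. The female Nons peak of this pair lay further into Ccdc87, at chr19:4840201-4840950, with 13, 1, 3 and 4 reads in library order and 5 in the input. The same pair was thus called through different regions in the 2 sexes.

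Peaks of both Nons lists overlapped each other at 7 pairs, and single promoters were not counted in this way. At Atp5h/Kctd2, where Atp5h encodes subunit d of mitochondrial ATP synthase, the female Nons region held 7, 2, 8 and 0 reads in library order and 3 in the input. At Slc25a29/Slc25a47, both mitochondrial carrier genes, it held 9, 0, 9 and 2 reads and 6 in the input. At Hdac3/Rell2, where Hdac3 encodes the deacetylase of the NCoR and SMRT corepressors, it held 8, 2, 12 and 2 reads and 7 in the input. These regions were low in both knockdown libraries in reads, and the knockdown libraries were also the shallower of each sex. At Cbln3/Khnyn, where Cbln3 encodes a cerebellin of granule neurons, reads were 9, 2, 14 and 0, with 6 in the input. At Smyd1/Cd8b1, where Smyd1 encodes a muscle histone methyltransferase and Cd8b1 a chain of the T cell coreceptor, they were 7, 2, 12 and 0, with 2 in the input. At Obsl1/Inha, where Inha encodes the alpha subunit of inhibin, they were 9, 1, 8 and 1, with 3 in the input. Pfdn6/Wdr46 was the seventh. In scaled reads all 7 regions were lower in female knockdown than in female Nons, and 6 of the 7 were lower in male knockdown than in male Nons, with Pfdn6/Wdr46 at 49.2 against 36.7. The regions were chosen as high in both Nons libraries, so this order is partly set by the choice.

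**Figure D4:**
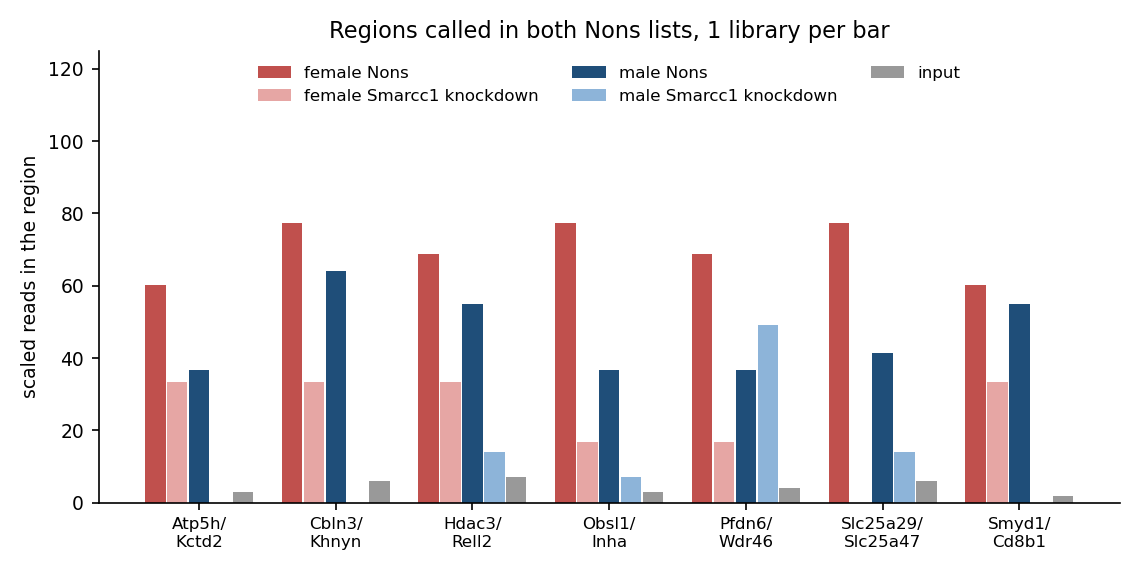
Scaled reads (y axis, reads times the step of the library) in the female Nons region of the 7 pairs called in both Nons lists (x axis), 1 bar per library and grey for the input reads. Female Nons bars lie at 60.2 to 77.4 and input bars at 2 to 7, and Pfdn6/Wdr46 is the pair with a male knockdown bar, 49.2, above its male Nons bar, 36.7.

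Peaks of both male lists overlapped at 13 pairs, a count that was not made at single promoters. One was Peg3/Usp29, imprinted genes that are expressed from the paternal allele and share a promoter, where the male Nons region held 0, 2, 14 and 12 reads in library order and 7 in the input. At Chtf18/Rpusd1, where Chtf18 loads the replication clamp during sister chromatid cohesion, the reads were 2, 0, 16 and 14, with 4 in the input. At Stk19/Dxo, where Dxo encodes an RNA decapping exonuclease, they were 5, 4, 18 and 14, with 6 in the input, the most male Nons reads of the 13. Male reads were more than female reads in these 3 regions, which were chosen from the male lists, and the female libraries were shallower. Hras/Lrrc56, with the Ras GTPase gene Hras, held 0, 1, 10 and 7 reads and 2 in the input. Lmf2/Ncaph2, with a condensin II subunit gene, held 8, 2, 12 and 10 and 7 in the input, which is 68.8 scaled reads in female Nons and 55.0 in male Nons. The other 8 pairs were Ccs/Ccdc87, Dbi/3110009E18Rik, Ncdn/AU040320, Pfdn6/Wdr46, Sirt6/Ankrd24, Tbc1d10b/Mylpf, Zfp672/Sh3bp5l and Zfyve28/Cfap99. In scaled reads, 11 of the 13 regions were higher in male knockdown than in male Nons and 2 were lower. Peg3/Usp29, for example, stood at 84.3 in male knockdown and 64.2 in male Nons. All 13 were called in both libraries compared, so this order is partly set by the choice. The fewest reads of a member were 7 in male knockdown and 5 in male Nons, at 7.03 and 4.59 scaled reads per read. The lowest call thus stood higher in scaled reads in male knockdown. Tada2b/Ccdc96, with a gene for a SAGA coactivator subunit, was called in female Nons and male knockdown by overlapping peaks.

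The female knockdown list had 2 members. At Dolk/Nup188, with genes for dolichol kinase and a nuclear pore protein, the region held 2, 6, 5 and 1 reads in library order and 6 in the input. At Ttc9c/Hnrnpul2, where Hnrnpul2 encodes a nuclear ribonucleoprotein of the DNA damage response, it held 3, 6, 7 and 1 reads and 9 in the input. No member of this list overlapped a male knockdown peak.

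The highest values over input came from regions with few input reads. In female Nons, Acyp1/Zc2hc1c led with 9 reads over 0 input reads, followed by Chchd4/Tmem43 with 12 over 1; Chchd4 is the import receptor of the mitochondrial intermembrane space. Lsm7/Sppl2b, with the RNA processing gene Lsm7, held 9 over 2. In male Nons, Tas1r1/Nol9 held 9 reads over 0 input reads, Stk19/Dxo 12 over 1 on its Stk19 side and Slc39a7/Rxrb, with a zinc transporter and a retinoid X receptor, 12 over 1. In male knockdown, Ranbp10/Tsnaxip1 held 16 reads over 3 input reads, beside 2 in male Nons and 0 in both female libraries. Cyb561d2/Nprl2, where Nprl2 encodes a GATOR1 subunit that restrains mTORC1, held 9 over 0, beside 5 in male Nons.

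Reads after knockdown were compared in regions called in the other sex, so that the libraries compared did not choose them. In female cells, 172 divergent regions called in a male list held 128 female knockdown reads and 464 female Nons reads, a knockdown over Nons ratio of 0.536 in scaled reads (0.437 to 0.653). Scaled reads were lower in female knockdown in 123 regions and higher in 36, and 98 regions held no female knockdown read. Such counts were not made at single promoters. A divergent region held a mean of 0.744 female knockdown and 2.70 female Nons reads, beside 0.919 and 2.69 at single promoters. At this depth many regions hold no read, and these count as lower wherever female Nons held one. The knockdown over Nons ratio was 0.665 (0.637 to 0.693) at single promoters and 0.636 in other regions. The ratio at divergent pairs over that at single promoters was 0.806 (0.655 to 0.987), and 0.738 (0.589 to 0.919) without regions also called in a female list. In male cells, 36 divergent regions called in a female list held 105 knockdown and 213 Nons reads, a ratio of 0.755 (0.592 to 0.959), against 0.983 at single promoters. Without the 9 of them that were also called in a male list the ratio was 1.01 (0.751 to 1.34), against 1.04 at single promoters. The male libraries compared chose which regions were left out, so this ratio does not decide whether the male difference holds. Of the 36 regions, 19 were higher in male knockdown and 17 in male Nons. Between the Nons libraries, 57 divergent regions called in a knockdown list gave a female over male ratio of 0.809 (0.659 to 0.988), against 0.978 at single promoters, and 0.956 (0.721 to 1.26) without those also called in a Nons list. Each ratio that leaves out regions called in a library compared is partly set by that choice. The interval of these ratios takes reads as independent, and variation between libraries is not in it.

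**Figure D5:**
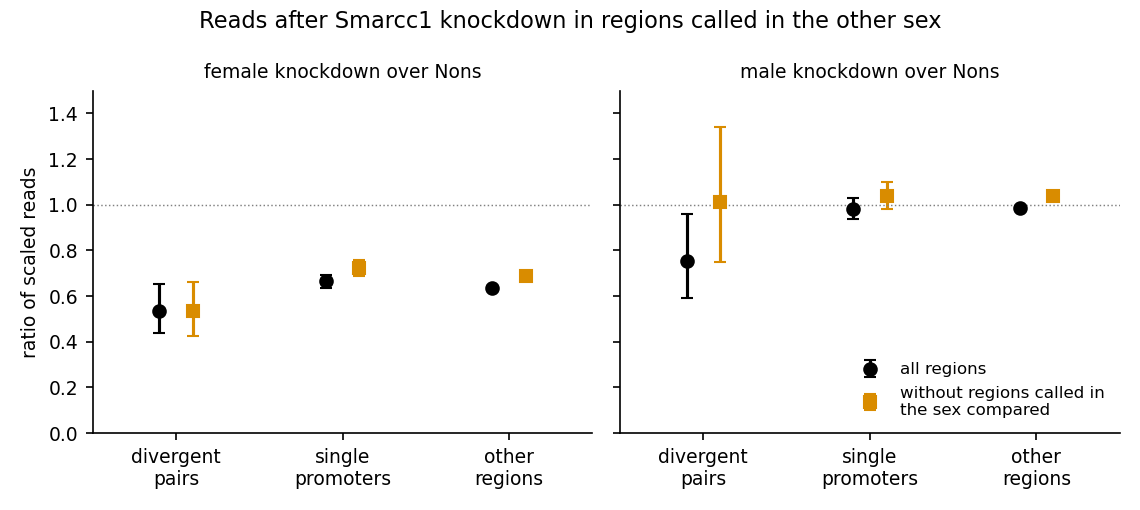
Ratio of scaled reads, Smarcc1 knockdown over Nons (y axis), in regions called in the other sex, at divergent pairs, single promoters and other regions (x axis), with exact conditional 95% intervals. Circles take all such regions. Squares leave out those also called in the sex compared, a choice made by the libraries compared. The female ratio at pairs is 0.536 and 0.533, and the male ratio moves from 0.755 to 1.01.

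Region by region no difference passed the test. In an edgeR quasi-likelihood fit of sex plus hairpin to 71678 regions with Benjamini-Hochberg adjustment, 0 of 198 divergent regions were called for sex and 0 for hairpin, against backgrounds of 0% and 0% of all regions. At an unadjusted p under 0.05 there were 3 divergent regions for sex (1.52%), beside 304 of all regions (0.424%). For hairpin there was 1 (0.505%), beside 293 (0.409%). All these shares were smaller than the cutoff, so the test was conservative here. DESeq2 with the same design also called 0 of all regions for either term. At an unadjusted p under 0.05 it had 3 divergent regions for sex (1.52%), beside 336 of all regions (0.469%). For hairpin it had 0 divergent regions (0%), beside 248 of all regions (0.346%). The fit has 1 residual degree of freedom, and its regions were called from the reads it tests.

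Among the gene groups typical of divergent promoters, those for cell division and RNA processing held peaks at about the rate of all pairs. The lists below were made from gene symbols with earlier results known, and 24.0% of all pairs had a peak in any list. Of 33 pairs with a gene of the cell cycle and mitosis 10 had a peak (30.3%, 15.6 to 48.7%), 7 of them in male Nons. Aurka/Cstf1, with the mitotic kinase Aurora A and a polyadenylation factor, held 14 male Nons reads over 3 input reads, 3 in female Nons, 0 in female knockdown and 2 in male knockdown. Gen1/Smc6, with a Holliday junction resolvase and a subunit of the SMC5/6 complex, held 16 male Nons reads over 11 input reads, and 1, 0 and 3 in the same other libraries. Of 44 pairs with an RNA processing gene 11 had a peak (25%, 13.2 to 40.3%), 9 of them in male Nons, among them Hnrnpdl/Enoph1 with 12 reads over 6 input reads.

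Of 41 pairs with a gene of DNA repair and replication 7 had a peak (17.1%, 7.15 to 32.1%). Among them were Toe1/Mutyh, Pinlyp/Xrcc1, Xrcc3/Zfyve21, Osgep/Apex1, Recql4/Lrrc14 and Mcm4/Prkdc. Osgep/Apex1, with the main abasic site endonuclease of base excision repair, held 11 male Nons reads over 4 input reads and 0 in female Nons. Toe1/Mutyh, with the glycosylase that removes adenine opposite oxidised guanine, was called in both male lists at separate regions, with 7 male Nons reads at one and 9 male knockdown reads at the other. Of the well-known divergent pairs looked up, Mcm4/Prkdc, with a subunit of the replicative helicase and the catalytic subunit of DNA-dependent protein kinase, held 10 female Nons reads, 5 female knockdown, 4 male Nons, 1 male knockdown and 5 input reads. Atm/Npat, Gart/Son and Brca1/Nbr1 had no peak in any list. Hspd1/Hspe1, Col4a1/Col4a2, Surf1/Surf2, Paics/Ppat and Hars/Hars2 were not pairs by the rule, because their most upstream annotated start sites lie past each other.

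Mitochondrial genes gave 3 of 18 pairs for the mitochondrial ribosome and 3 of 23 for oxidative phosphorylation. Tatdn1/Ndufb9, with a complex I subunit, held 8 male Nons reads over 5 input reads. Of 5 pairs with an aminoacyl tRNA synthetase, 3 had a peak, among them S100pbp/Yars and Mrps12/Sars2. Chromatin regulators had a peak at 3 of 15 pairs, which were Hdac3/Rell2, Sirt6/Ankrd24 and Slc7a6os/Prmt7. Ubiquitin and proteasome genes had 5 of 25, zinc finger genes 5 of 22 and vesicle traffic genes 7 of 27. Among these 7, Arl16/Hgs was counted once per gene identifier, through the same peak. No peak was found at 14 pairs with a histone gene, where the interval reached 23.2%, at 8 pairs with a cytosolic ribosomal protein gene, at 3 pairs with a developmental transcription factor gene or at the 1 pair with a collagen gene. Developmental transcription factors were mostly single promoters, and 111 of those 242 held a peak in some list (45.9%), beside 18.2% of all single promoters. With these numbers of pairs, each list with a peak had an interval that held the 24.0% of all pairs.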

How the data were processed

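ChIP-seq for Smarca4 was analysed from 4 peak lists, with an input library beside them. Per the methods and labels, the authors aligned single-end reads to mm10 with bowtie2 (the study's reporting form names tophat, so the aligner is uncertain) and called peaks in each library against the input with MACS2 in Seqmonk. Their processing notes list bcl2fastq beside Bowtie2 and MACS2, and no version. The deposited ChIP values are a signal, the reads of a region scaled by the authors to the depth of the input. All of them (100%) were whole multiples of 1 step per library within 0.01 reads, and the step was taken as 1 read. The input column holds counts, deposited as whole reads. The number of columns of other samples left out was 0.

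Groups came from sample titles. Pairs, single promoters and start sites came from GENCODE vM21, and sequence from GRCm38.p6 with pysam 0.24.0. A pair was counted per gene identifier, so 6 pairs share both symbols with another. Shares have Clopper-Pearson intervals, and read ratios exact conditional intervals (scipy 1.17.1). Overlapping regions entered a ratio or the fit once, as the widest peak. The fit used edgeR 4.0.16 in R 4.3.3 with library sizes from the steps. It was tried on simulated counts that held counting error only and large planted changes. That trial does not show what the fit can detect in these data. Alternatives used TMM, a minimum of 10 reads and DESeq2 1.42.0, and other distances, gaps, start sites, input limits, overlaps and windows.

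Pairs were named if called in 3 or more lists, if among the 5 members of highest scaled value over input reads plus 1 in a list, if both Nons or both knockdown lists overlapped there, if they held a gene of 14 symbol lists, or if well known as divergent. Examples were picked among these for known function. Pairs with peaks on both flanks and pairs of both male lists were named after their values were seen. Members and lists were chosen with earlier results of these data known. Some pairs that the rule names are not reported here.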

Additional observations from a re-analysis of the deposited data

How the results depend on the processing

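Of 114 alternative values, 90 stayed within the 95% interval of the main value or, for the fit, within 1.5 times its count of calls. Every count of calls of the fit was 0. A change of direction was looked for only where the main interval left out no difference. The pair share over the single share in female Nons, 1.16, was thus among the 90 at 0.991 with GC weighting. The male knockdown over Nons ratio at divergent pairs, 0.755, turned to 1.01 without regions also called in a male list. It was 1.02 with each pair weighted alike, by the median over pairs. For the 1.01, regions were left out by the calls of the male libraries compared. The cause of these changes was not tested. The interval of the male ratio held 1 within 500 bp (0.812) and with gaps up to 300 bp (0.884). The female ratio at divergent pairs stayed below 1 under every alternative run, but the main ratio at single promoters was also below 1, at 0.665. The interval at divergent pairs held 0.665 with overlapping heads taken in (0.635, 0.546 to 0.736) and under 5 input reads (0.603, 0.452 to 0.795). The other intervals run ended below 0.665. The ratio at pairs over that at single promoters was not computed under other pair definitions or input limits, so that difference was not tested there. The pair share over the single share in male Nons, 1.41, was 1.67 after thinning to the shallowest library and 1.17 with single promoters weighted to the GC classes of the pairs, an alternative added after seeing the data. Its interval held 1 with that weighting, with under 5 input reads (1.29) and with the top 50% of the list (1.23). In male knockdown it was 1.40, and its interval held 1 with gaps up to 300 bp (1.28), under 5 input reads (1.24), the top 50% of the list (1.22), and GC (1.18) or CpG (1.25) weighting. In female Nons it was 1.16, and its interval lay above 1 with any coding transcript start site (1.39). In female knockdown it was 0.419, and 0 with under 5 input reads or with the top 50% of the list, which leave no member.

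The percent of a list's autosomal peaks that were members followed the definition of a pair. It was 0.163 and 0.0743 in the female lists and 0.349 and 0.330 in the male lists, Nons before knockdown. Within 500 bp it was 0.110 in female Nons, 0.257 in male Nons and 0.222 in male knockdown. With gaps up to 300 bp it was 0.272 in male Nons and 0.246 in male knockdown. With overlapping heads taken in it was 0.259, 0.569 and 0.511 in female Nons, male Nons and male knockdown, and with any coding transcript start site 0.397, 0.569 and 0.499. Under 5 input reads it was 0 in female knockdown and 0.273 in male Nons. In the top 50% of each list it was 0.276 and 0.237 in the male lists and 0 in female knockdown. Thinned, it was 0.472 in male Nons and 0.447 in male knockdown.

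No paired analysis was possible because each group held 1 library and so no replicate number to pair by; the edgeR fit of sex plus hairpin took sex as its term, with 1 residual degree of freedom. Libraries of 5.99 to 21.8% of the input depth, with 5 to 9 reads in a median peak, limit what a missing peak can show.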
